A study of Arabidopsis thaliana with 4 samples.

Results

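UDP-glycosyltransferase (UGT) genes of Arabidopsis thaliana were followed in whole seedlings given GSH, the reduced form of the tripeptide glutathione. Members were all nuclear genes with a probe set of their own and a symbol made of UGT and a family number. The rule found 47 UGT genes among 13217 named nuclear genes. It was also meant to take ABC transporters of subfamilies A to I, but none of the 124 RefSeq genes with such a symbol is paired with a probe set in the annotation used here, so ABC transporters were not analysed here and all results concern UGT genes. Of 58 RefSeq genes with a UGT symbol, 4 share a probe set with another gene and 7 are not analysed here.

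Expression was measured on 4 Affymetrix one-colour arrays, 2 from control seedlings and 2 from seedlings treated with GSH for 72 hours. All were ecotype Columbia seedlings, labelled as 15 days old. The dose of GSH and the time at which controls were collected are not given in the sources used here, so the groups may differ in age at harvest. The titles call the replicates biological. Whether each was its own culture is not stated, so the p-values cover the spread between arrays alone, which may be technical.

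UGTs move a sugar from a UDP-sugar, most often UDP-glucose, onto small acceptor molecules. In plants the acceptors include hormones, phenylpropanoids, flavonoids, sterols, glucosinolate precursors and foreign compounds, and the sugar usually makes the product more soluble and ready for storage in the vacuole. Family numbers follow sequence similarity and the letters after them mark subfamilies. Many plant UGT genes lie side by side in the genome as tandem copies.

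GSH-treated seedlings had higher signals for 14 UGT genes and lower signals for 9, while 24 did not pass. The largest increases were 3.62-fold for UGT73D1, 3.0-fold for UGT76B1 and 2.40-fold for UGT76E11, and the largest decrease was 2.02-fold for UGT72E1, whose enzyme glucosylates the lignin precursors coniferaldehyde and sinapaldehyde. Values are log2 expression as deposited, and a call means an adjusted p under 0.05 in limma, fitted on all 22746 probe sets. The 23 called members make up 48.9% of the 47, beside 33.8% of all probe sets. In the upward direction 29.8% of members passed, beside 16.2% of all probe sets, and in the downward direction 19.1%, beside 17.5%. The share of members that fell was thus near that of all probe sets. Without GSH replicate 1, 9 members were higher and 9 lower, beside 13.4% and 13.8% of all probe sets in that setting.

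**Figure D1:**
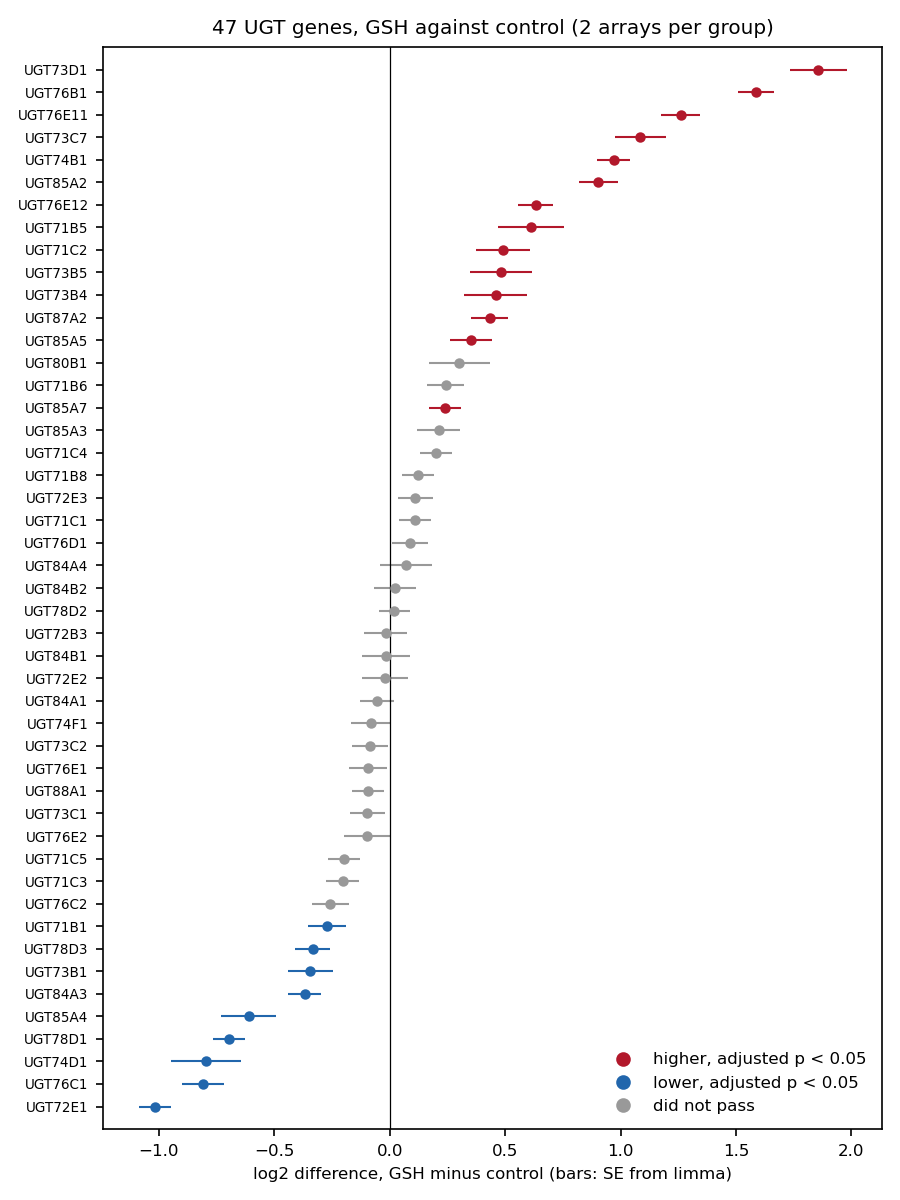
Log2 difference between GSH-treated and control seedlings for each of the 47 UGT genes (x axis, log2 units), with bars for the limma standard error and 2 arrays per group. Red and blue points passed an adjusted p under 0.05, and differences run from -1.02 for UGT72E1 to 1.86 for UGT73D1.

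The median difference over the 47 genes was 0.02 log2 units, beside -0.01 over all probe sets. The median size of a difference, whatever its direction, was 0.26 log2 units for UGT genes and 0.16 for all probe sets. A difference of 2-fold or more with no overlap between groups was seen for 5 members, beside 3.96% of all probe sets. Of the 5, 4 were higher (beside 2.27%) and 1 was lower (beside 1.69%). Another 8 called members lay between 1.5-fold and 2-fold, and 10 called members were under 1.5-fold. The groups did not overlap for any called member, nor for 12 of the 24 that did not pass. Over all probe sets, 65.2% showed no overlap at any size. The 8 members in the lowest 25% of mean values, at or below 4.06, were UGT71B1, which passed, and 7 that did not. The 7 were UGT71C1, UGT71C3, UGT72B3, UGT73C1, UGT73C2, UGT76E1 and UGT84B2. Without detection calls, values near or below 4.06 cannot be said to lie above background, and the size of their differences is uncertain.

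Other features of the arrays also differed between the groups. The array's own probe set for 25S ribosomal RNA had a mean of 11.06 on control arrays and 8.09 on treated arrays, while the dim one for 5S ribosomal RNA had 3.77 and 3.89. Of 7 green tissue markers 4 were matched to a probe set in the annotation used here. Measured, here and below, means matched in this way, and other listed genes may still be on the array. The 4 were RCA and the related genes LHCB4.1, LHCB4.2 and LHCB4.3, so they are not separate observations of tissue. Their differences ran from -0.42 to -0.21 log2 units. The groups did not overlap for any of the 4, as for 65.2% of all probe sets. In limma 2 of them (50%) passed, both lower, beside 17.5% of all probe sets, and all 4 had an unadjusted p under 0.05. Their summed linear signal was 10337 to 10804 on control arrays and 8629 to 9152 on treated arrays. LHCB4.1 had the highest means, 12.76 on control and 12.55 on treated arrays, and weighs most in these sums. Of 7 root markers 3 were measured and none passed in limma (1 at an unadjusted p under 0.05), with a summed linear signal of 55.6 to 57.5 on control and 49.8 to 55.9 on treated arrays. Their group means were 4.18 to 4.31 on control and 3.93 to 4.33 on treated arrays, near the limit of 4.06. The sums may thus be mostly background and say little of root content. One of 7 flower and pollen markers was measured, with linear signals of 14.6 to 18.3 on control and 15.2 to 15.6 on treated arrays. Its log2 group means of 4.03 and 3.94 lay below the limit of 4.06. The part of these in the UGT differences was not tested. Fewer cells of a type and less RNA per cell cannot be told apart in whole seedlings.

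UGT76B1 stood out among members that act on immune signals. Its enzyme glucosylates isoleucic acid, salicylic acid and N-hydroxypipecolic acid. The 2 control arrays gave log2 values of 4.66 and 4.63, and the treated arrays gave 6.16 and 6.30. Both treated values lay far above both control values, and the arrays of each group lay close together. The difference was 1.59 ± 0.08 log2 units (SE, n = 2 per group, limma adjusted p = 3.66e-05), larger than for 99.3% of all probe sets. UGT74F1, which makes the 2-O-glucoside of salicylic acid, stood at -0.08 ± 0.09 and did not pass. UGT76D1, which glucosylates dihydroxybenzoic acids derived from salicylic acid, stood at 0.09 ± 0.08 and did not pass either. UGT71C3, for an enzyme acting on methyl salicylate, stood at -0.20 ± 0.07 with both group means below 4.06. Thus 1 of these 4 genes (25%) passed, beside 33.8% of all probe sets.

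The UGT73 family held the member with the largest increase, UGT73D1. Control arrays gave 6.02 and 5.69 for UGT73D1, and treated arrays gave 7.80 and 7.62. The gap between the groups exceeded the gap within either group several times over. UGT73D1 rose by 1.86 ± 0.12 log2 units (SE, n = 2 per group, limma adjusted p = 0.000102), and 0.435% of all probe sets had a larger increase. UGT73C7, whose enzyme is reported to glucosylate hydroxycinnamic acids, had log2 values of 4.38 and 4.66 on control arrays and 5.54 and 5.67 on treated arrays. All treated values of UGT73C7 were above all control values, at a difference of 1.08 ± 0.11 (limma adjusted p = 0.000537). In the same subfamily UGT73C1, for an enzyme that takes foreign nitroaromatic compounds as acceptors, and UGT73C2 stood at -0.10 and -0.09, did not pass, and had group means below 4.06.

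Subfamily UGT73B moved both ways. UGT73B5 and UGT73B4, both linked to the response to pathogens, rose by 0.48 ± 0.14 and 0.46 ± 0.14 log2 units (limma adjusted p = 0.0336 and 0.0406). UGT73B1 fell by 0.34 ± 0.10 (limma adjusted p = 0.0349). These 3 calls rest on small differences and depend on single arrays. The limma adjusted p of UGT73B5 was 0.111 without control replicate 1 and 0.149 without GSH replicate 1. UGT73B4 had 0.131 without control replicate 2, where its difference was 0.26, then 0.166 without GSH replicate 1 and 0.0714 without GSH replicate 2. UGT73B1 had 0.136 without control replicate 2 and 0.146 without GSH replicate 2. Across the whole UGT73 family 4 of 7 members (57.1%) rose, beside 16.2% of all probe sets, and 1 (14.3%) fell, beside 17.5%. The other 2 did not pass, and the family median difference was 0.46 log2 units.

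**Figure D2:**
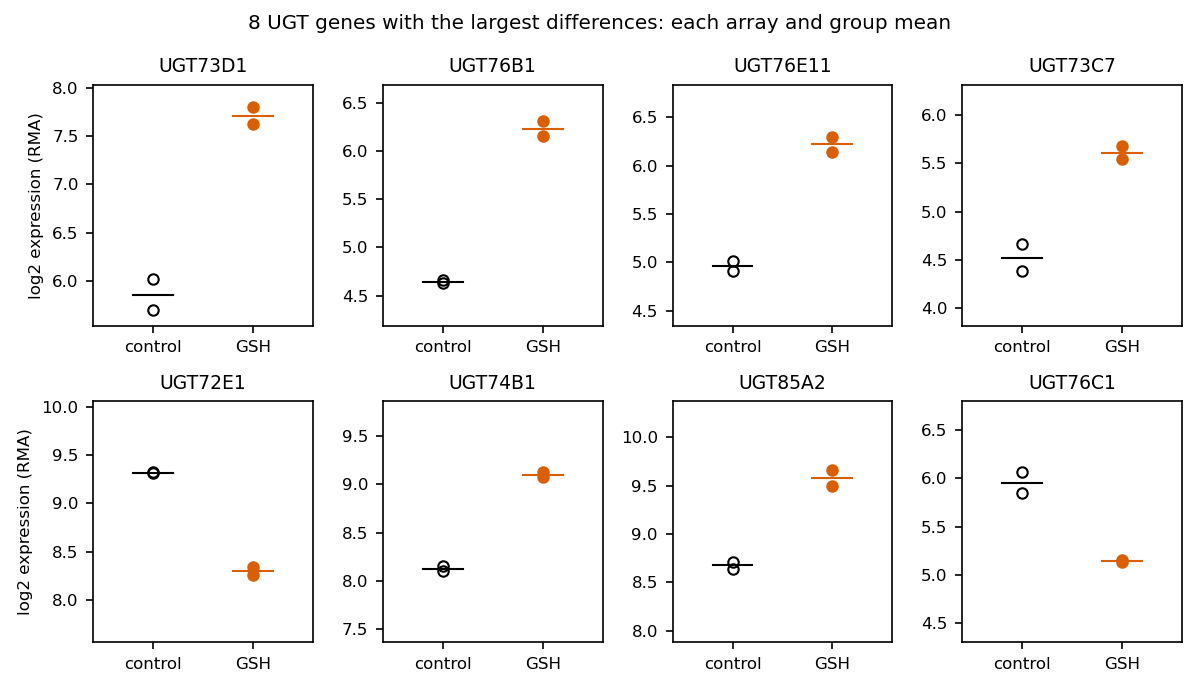
Log2 expression (RMA, y axis) on each array for the 8 called UGT genes with the largest differences, with open circles for control arrays, filled circles for GSH arrays and lines for group means. Every panel spans the same range of log2 units, and in all 8 the groups do not overlap: 6 genes are higher in GSH and 2, UGT72E1 and UGT76C1, are lower.

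UGT74B1 makes the core of glucosinolates, the sulfur-rich defence compounds of the cabbage family, by adding glucose to the sulfur of a thiohydroximate. Its control arrays read 8.15 and 8.10 and its treated arrays 9.12 and 9.07. The arrays within a group differed by 0.05 log2 units, against a difference of 0.97 ± 0.07 between groups (SE, limma adjusted p = 0.000144). UGT74D1, of the same family, acts on auxins and went the other way. Its control arrays read 8.80 and 8.69 and its treated arrays 8.19 and 7.70, a fall by 0.80 ± 0.15 log2 units (limma adjusted p = 0.00757) in which the treated arrays lay further apart than the controls. Of 28 other genes listed for glucosinolate synthesis 1 had a probe set of its own in the annotation used here. That gene, BCAT4, for an aminotransferase of methionine chain elongation, stood at 0.06 and did not pass, with group means of 3.98 and 4.04 that are not above the limit of 4.06.

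Of 7 members grouped here for acceptors among auxin, cytokinin and abscisic acid, 2 (28.6%) fell, beside 17.5% of all probe sets. The other 5 did not pass, and the median difference of the 7 was -0.20 log2 units. The grouping was made after the values were seen, and other members may also act on these hormones. UGT76C1, a cytokinin N-glucosyltransferase, read 5.85 and 6.06 on control arrays and 5.16 and 5.13 on treated arrays. Both treated values of UGT76C1 were below both control values, at a difference of -0.81 ± 0.09 (SE, limma adjusted p = 0.000819). UGT76C2, which carries out the same N-glucosylation, stood at -0.26 ± 0.08 and missed the threshold (limma adjusted p = 0.0513). It passed after a second quantile normalization (limma adjusted p = 0.0438) and without the lowest 25% of probe sets (0.0416). An intensity trend also gave a pass (0.0396). It did not pass with arrays centred on their medians (limma adjusted p = 0.0629) or with a robust variance model (0.0542). With replicate numbers as a block (0.0719) or without moderation (0.224) UGT76C2 also missed the threshold. With 1 array left out its difference ran from -0.34, without control replicate 2, to -0.18, without control replicate 1. The auxin gene UGT84B1, which forms the glucose ester of indole-3-acetic acid, and its neighbour UGT84B2 stood at -0.02 ± 0.10 and 0.02 ± 0.09. The abscisic acid glucosyltransferase genes UGT71B6 and UGT71C5 stood at 0.24 ± 0.08 and -0.20 ± 0.07 and did not pass, with limma adjusted p-values of 0.0629 and 0.0748. UGT74D1, given above, is the other member that fell.

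Of 6 genes grouped here for monolignol and hydroxycinnamate acceptors 2 (33.3%) fell, beside 17.5% of all probe sets, and 4 did not pass. UGT73C7, given above and not among the 6, also has reported hydroxycinnamic acid acceptors and rose by 1.08 ± 0.11. UGT72E1 read 9.32 and 9.31 on control arrays and 8.34 and 8.26 on treated arrays. Each treated array was about 1 log2 unit below each control array, and the difference was -1.02 ± 0.07 (SE, limma adjusted p = 0.000123). UGT72E2 and UGT72E3, whose enzymes act on lignin alcohols, stood at -0.02 ± 0.10 and 0.11 ± 0.08 and did not pass. UGT84A3, which forms glucose esters of hydroxycinnamic acids such as sinapate, fell by 0.37 ± 0.07 (limma adjusted p = 0.00791). Its neighbours UGT84A1, of the same activity, and UGT84A4 stood at -0.05 ± 0.08 and 0.07 ± 0.11. Of 32 listed genes of phenylpropanoid and flavonoid synthesis 5 were measured and 1 (20%) passed, beside 33.8% of all probe sets. CCR2, a cinnamoyl-CoA reductase that produces such aldehydes, was that gene, at 6.18 on control and 7.57 on treated arrays, and rose by 1.39 ± 0.08 (limma adjusted p = 5.17e-05). HCT (-0.18), DFR (0.14), BAN (0.07) and ALDH2C4 (-0.05) did not pass.

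Flavonoid glycosylation is the role of the UGT78D subfamily, of which 2 of 3 members (66.7%) fell, beside 17.5% of all probe sets. UGT76E11, described below and not counted here, also has reported flavonoid acceptors and rose by 1.26 log2 units. UGT78D1, the flavonol 3-O-rhamnosyltransferase, read 4.74 and 4.80 on control arrays and 4.08 and 4.06 on treated arrays, and fell by 0.70 ± 0.07 log2 units (SE, limma adjusted p = 0.000514). UGT78D3, the flavonol arabinosyltransferase, fell by 0.33 ± 0.08 (limma adjusted p = 0.015), but its adjusted p was 0.0884 without control replicate 2 and 0.0647 without GSH replicate 2. The treated values of both lay close to the limit of 4.06, so the sizes are uncertain. UGT78D2, the flavonoid 3-O-glucosyltransferase, read 6.59 and 6.64 on control arrays and 6.63 on both treated arrays. Its difference was 0.02 ± 0.07 and did not pass.

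Most other called members belonged to the UGT76E, UGT85A and UGT71 groups. UGT76E11, whose enzyme is reported to act on flavonoids, read 5.01 and 4.91 on control arrays and 6.14 and 6.30 on treated arrays. The groups lay well apart, at a difference of 1.26 ± 0.08 (SE, limma adjusted p = 0.000106). UGT76E12 rose by 0.63 ± 0.08 (limma adjusted p = 0.00115) from a control mean of 3.91, which is not shown to be above background. UGT76E1, for an enzyme acting on a hydroxylated jasmonate, and UGT76E2 stood at -0.09 ± 0.08 and -0.10 ± 0.10.

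UGT85A2 read 8.64 and 8.71 on control arrays and 9.66 and 9.50 on treated arrays. All treated values of UGT85A2 exceeded all control values, and it rose by 0.90 ± 0.08 log2 units (SE, limma adjusted p = 0.000368). UGT85A5 and UGT85A7 rose by 0.35 ± 0.09 and 0.24 ± 0.07 (limma adjusted p = 0.0239 and 0.0382), while UGT85A3 stood at 0.21 ± 0.09 and did not pass. Outside their gene cluster, UGT85A4 read 6.45 and 6.31 on control and 5.94 and 5.60 on treated arrays and fell by 0.61 ± 0.12 (limma adjusted p = 0.00813). UGT85A5 lost its call without control replicate 1 (limma adjusted p = 0.115) and without GSH replicate 1 (0.109). UGT85A7 lost it without any of the 4 arrays, with adjusted p-values from 0.0851 to 0.181, while UGT85A3 passed without GSH replicate 2, at 0.33 (0.0401).

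In the UGT71 family 2 of 9 members (22.2%) rose and 1 (11.1%) fell, beside 16.2% and 17.5% of all probe sets. The other 6 did not pass. UGT71B5 rose by 0.61 ± 0.14 and UGT71C2 by 0.49 ± 0.12 log2 units (limma adjusted p = 0.0167 and 0.018), and UGT71B1 fell by 0.27 ± 0.08 (0.0454) at the dim end of the scale. None of these calls held against the loss of single arrays. UGT71B5 had a limma adjusted p of 0.0747 without GSH replicate 1 and 0.0565 without GSH replicate 2. UGT71C2 had 0.0533 without control replicate 1 and 0.0611 without GSH replicate 1. UGT71B1 had 0.0664 and 0.189 without either control array and 0.185 without GSH replicate 2. UGT71C4, UGT71B8 and UGT71C1 stood at 0.20, 0.12 and 0.11 and did not pass.

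UGT87A2, an influence on flowering time, read 10.58 on both control arrays and 11.09 and 10.93 on treated arrays. Its treated arrays were both higher, at a difference of 0.43 ± 0.08 (SE, limma adjusted p = 0.00684). UGT80B1, a sterol glucosyltransferase, stood at 0.30 ± 0.13 and did not pass, with treated arrays at 5.91 and 6.23 and the higher control array at 5.89. Without control replicate 1 or GSH replicate 1 UGT80B1 passed, at 0.43 (limma adjusted p = 0.0495) and 0.46 (0.0483), while without control replicate 2 or GSH replicate 2 the difference was 0.17 and 0.14. UGT88A1 (-0.09) and UGT72B3 (-0.02) did not pass. The 24 members that did not pass had differences from -0.26 to 0.30 log2 units, with standard errors from 0.07 to 0.13. A miss of the threshold does not show that their levels were equal.

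**Figure D3:**
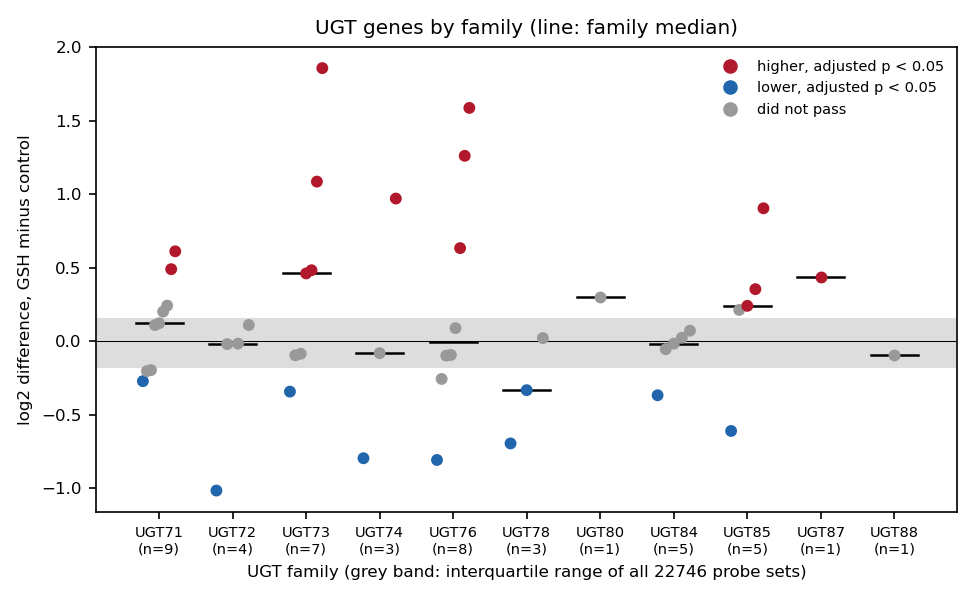
Log2 difference between GSH-treated and control seedlings (y axis, log2 units) for UGT genes by family, with a line for each family median and a grey band for the interquartile range of all probe sets, from -0.17 to 0.15. The medians run from -0.33 in UGT78 (3 genes) to 0.46 in UGT73 (7 genes), and members of a family spread on both sides of 0 in UGT71, UGT72, UGT73, UGT74, UGT76, UGT78, UGT84 and UGT85.

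In UGT71, UGT73, UGT74, UGT76 and UGT85 some members rose and others fell. UGT76 genes ran from -0.81 to 1.59 log2 units. Of the 8, 3 (37.5%) rose and 1 (12.5%) fell, beside 16.2% and 17.5% of all probe sets, and 4 did not pass. UGT74 genes ran from -0.80 to 0.97 and UGT85 genes from -0.61 to 0.90. In UGT84 1 of 5 members (20%) and in UGT72 1 of 4 (25%) fell, beside 17.5% of all probe sets, and the others did not pass.

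Gene order was not used to choose the members and gave a further view of them. In the RefSeq annotation of assembly TAIR10.1, 31 of the 47 genes fell into 13 groups of neighbours, with at most 2 other protein-coding genes between successive members, and 16 stood alone. These groups held 18 pairs of successive genes. Both genes rose in 5 pairs, both fell in 0, and 0 pairs held 1 gene that rose and 1 that fell. Some pairs share a gene and are not separate observations, and no share over neighbouring pairs of all genes was computed. Among the pairs in which both rose, the calls of UGT85A7, UGT85A5, UGT73B5 and UGT73B4 were lost when single arrays were left out. In 2 pairs 1 gene rose and the other did not pass, in 5 pairs 1 fell and the other did not pass, and in 6 pairs neither passed. UGT73D1 and UGT73C7, directly adjacent on chromosome 3, both rose at least 2-fold. UGT76E12 and UGT76E11, also on chromosome 3, both rose, as did UGT73B5 and UGT73B4 on chromosome 2. The cluster of UGT85A7, UGT85A2, UGT85A5 and UGT85A3 on chromosome 1 held 3 genes that rose. By contrast UGT76C1 fell beside UGT76C2, and UGT78D3 beside UGT78D2, where the second gene of each pair did not pass. UGT71C5, UGT71C4 and UGT71C3 stood at -0.20, 0.20 and -0.20. Tandem copies can be similar in sequence, and whether a probe set also binds transcript of a neighbour was not tested.

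**Figure D4:**
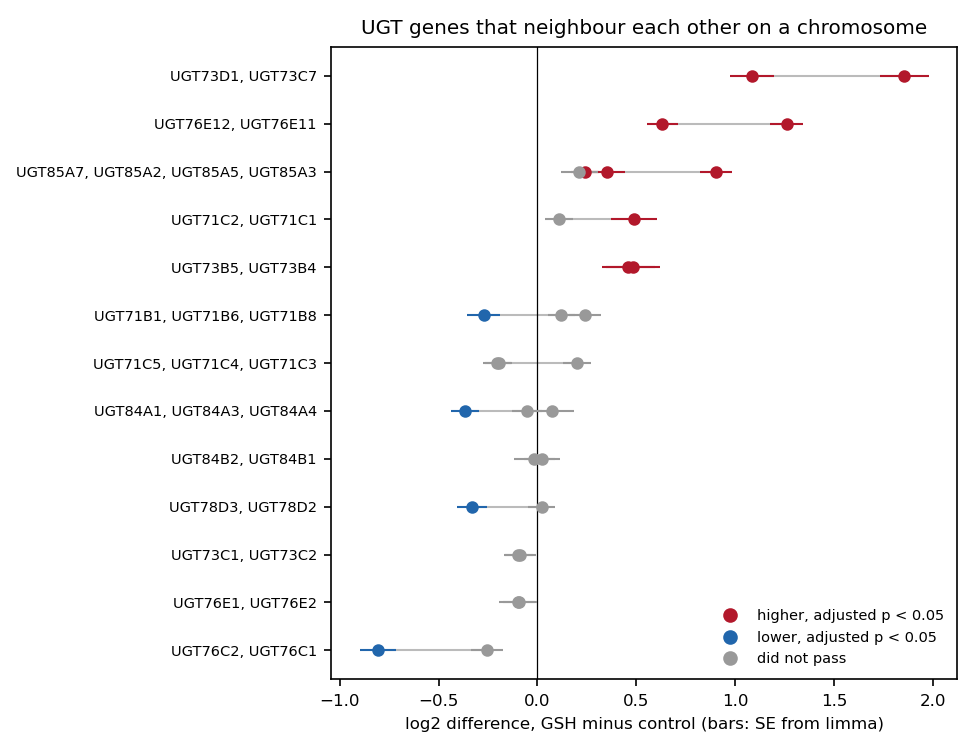
Log2 difference between GSH-treated and control seedlings (x axis, log2 units, bars for the limma standard error) for the 31 UGT genes that neighbour another, 1 line per group. Lines are sorted by the highest difference in the group, and the genes in each label follow chromosome order. UGT73D1 lies furthest to the right at 1.86, with its neighbour UGT73C7 at 1.08, and UGT76C1 lies furthest to the left at -0.81, with its neighbour UGT76C2 at -0.26.

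Few genes that work beside UGTs were matched to a probe set in the annotation used here. That annotation pairs 8730 of the 22746 tested probe sets with no gene, so listed genes without a match may still be on the array. Of 38 listed genes for the synthesis of UDP-sugars 1 had a probe set of its own. USP, for a pyrophosphorylase that makes UDP-sugars from sugar phosphates, rose by 0.47 ± 0.08 log2 units from a control mean of 7.22 (limma adjusted p = 0.00357). Of 38 listed genes of detoxification 5 were measured, of which 4 rose, beside 16.2% of all probe sets, and 1 did not pass, with a median of 0.51. The list was chosen with earlier results of these data known, so this share is not a separate test. NQR, for a quinone reductase, rose by 0.67 ± 0.08, from 9.20 to 9.87 (limma adjusted p = 0.000832). The alkenal reductase gene AER and the glutathione S-transferase gene GSTU28 rose by 0.51 ± 0.08 and 0.60 ± 0.14, and GSTU25 rose by 0.43 ± 0.14 from a control mean of 3.57 that is not shown to be above background (limma adjusted p = 0.00374, 0.0175 and 0.0497). ALDH7B4, an aldehyde dehydrogenase gene, stood at 0.02. No listed gene of abscisic acid or cytokinin metabolism was matched to a probe set of its own in that annotation.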

How the data were processed

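The authors deposited a log2 expression value for each probe set on each array. Per the submitters' processing notes these come from Affymetrix Expression Console with RMA, which corrects background, quantile-normalizes arrays and summarises probes by median polish, and the RNA input was 6 µg of total RNA, per the labels' protocols. Quantile normalization hides a change shared by most transcripts, and the number of arrays limits precision. The values of all 22810 probe sets were used as deposited, apart from 64 control probe sets left out of the tests. The comparison used R 4.3.3 and limma 3.58.1, with lmFit and eBayes on a model of treatment alone, and Benjamini-Hochberg adjustment over 22746 probe sets. Errors are moderated standard errors. Names came from the platform annotation and were updated to RefSeq symbols by gene identifier: 13513 carried 1 gene, 503 several and 8730 none. Each of the 47 members had 1 probe set, and all 47 platform symbols equalled the RefSeq symbol. Coordinates are left out because none of the sources used here names a genome build for the array.

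Every member that passed without overlap is named, and the value on every array is given for at least the 8 of them with the largest differences. The members and lists were chosen with earlier results of these data known, and roles were assigned from background knowledge after the values were seen. On data simulated from the control means, limma called 16 of 50 probe sets changed by 0.5 log2 units, 49 of 50 changed by 1, and 9 of 22546 unchanged ones. The simulated variances came from limma's own fitted prior, and far fewer probe sets were changed than were called in the data. These rates therefore do not carry over to the data. Scaling, filters, variance models, replicate numbers as a block and left-out arrays were varied. Probe set choice and symbol source were also listed as settings, but could not change the members.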

Additional observations from a re-analysis of the deposited data

How the results depend on the processing

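Calls rest on the variance that limma shares across probe sets. Without moderation 4 UGT genes passed (2 higher, 2 lower: UGT74B1, UGT76B1, UGT72E1 and UGT78D1), and over all probe sets 1425 passed, 728 higher and 697 lower. In all other settings tried, leaving aside the crossed pairing below, 14 of the 23 called UGT genes passed every time, 8 higher and 6 lower. Leaving out 1 array gave 18 to 19 called members, 9 to 12 higher and 6 to 9 lower, and 6186 to 6248 probe sets. The replicate numbers mark no stated batch, and the deviations of same-numbered arrays correlated at -0.103 across probe sets. With the replicate number as a block 17 UGT genes passed, 10 higher and 7 lower, and 6235 probe sets. The crossed pairing, chosen after seeing the data, gave 21 UGT genes and 6898 probe sets. With the lowest 25% of probe sets removed the UGT median was 0.11 over fewer genes. In that setting 23 of 39 members were called, beside 7877 of 17059 probe sets. Of these 23 members, 22 are among the 23 called over all probe sets, and UGT76C2 was gained. Centring arrays on their medians gave 16 higher and 8 lower, beside 17.8% and 16.4% of all probe sets. There UGT71B1 was lost (limma adjusted p = 0.0634) and UGT71B6 and UGT71C4 were gained. The intensity trend gave 25 called members, 14 higher and 11 lower, beside 17.4% and 18.7% of all probe sets. With the trend UGT85A7 was lost (limma adjusted p = 0.106) and UGT71C4, UGT71C5 and UGT76C2 were gained. A second quantile normalization gave 26, 15 higher and 11 lower, beside 16.4% and 17.7% of all probe sets, with UGT71B6, UGT71C5 and UGT76C2 gained. Members near 0 that did not pass changed sign. On centred arrays UGT72B3, UGT84B1 and UGT72E2 stood at 0.0067, 0.0063 and 0.0036, and after a second quantile normalization UGT84B1 and UGT72E2 stood at 0.0040 and 0.015. With 1 array left out the ranges were -0.058 to 0.20 for UGT84A4, -0.0031 to 0.044 for UGT78D2, -0.10 to 0.068 for UGT72B3, -0.13 to 0.10 for UGT84B1, -0.21 to 0.012 for UGT76E2, -0.074 to 0.12 for UGT84B2, -0.12 to 0.077 for UGT72E2, -0.11 to 0.0029 for UGT84A1 and -0.18 to 0.017 for UGT74F1. Probe set choice and symbol source could not change any member, because each had 1 probe set and its platform symbol equalled the RefSeq symbol. Signals at or below 4.06 limit what can be said of dim members.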

Other observations

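A further 4 genes carry a UGT name among their RefSeq synonyms but another symbol, so the rule did not take them, and they were looked at after the members. GT72B1 (UGT72B1), whose enzyme conjugates chlorinated phenols and anilines, read 8.01 and 7.95 on control arrays and 8.96 and 8.83 on treated arrays. It rose by 0.91 ± 0.08 log2 units (SE, n = 2 per group, limma adjusted p = 0.000274). SGT (UGT80A2), a sterol glucosyltransferase gene, stood at -0.15 ± 0.07 and did not pass. UF3GT (UGT79B1), which extends the sugar chain of anthocyanins, had a mean of 5.56 in both groups, and AT5G54010 (UGT79B6) stood at -0.22 ± 0.08, at the dim end of the scale, and did not pass. With these 4 genes, 24 of 51 (47.1%) passed, beside 33.8% of all probe sets. Of the 51, 15 (29.4%) were higher, beside 16.2%, and 9 (17.6%) were lower, beside 17.5%.

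Lists chosen around ABC transporters, also with earlier results of these data known, had few genes matched to a probe set in the annotation used here. Of 37 genes for phytochelatins and metal transport 4 were measured and 2 (50%) rose, beside 16.2% of all probe sets. The metallothionein gene MT1C rose by 1.37 ± 0.07 log2 units (limma adjusted p = 4.56e-05) and the metal transporter gene ZIP9 by 0.40 ± 0.10 (0.0189). Of 23 genes of iron-sulfur cluster assembly 3 were measured. SUFE2, for an activator of plastid cysteine desulfurase, rose by 0.83 ± 0.09 and HCF101, for a plastid scaffold protein, fell by 0.61 ± 0.08, while ISU1 (0.09) did not pass. AIM1, the 1 measured of 18 genes of peroxisomal beta-oxidation, rose by 0.24 ± 0.07 (limma adjusted p = 0.0412). WAG2 (-0.14) of auxin transport and WSD1 (-0.06) and SHN3 (-0.06) of wax and cutin did not pass.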
